A study of Homo sapiens with 6 samples.

Results

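S100A8, S100A9, S100A12, S100A4, S100A6, S100A10, S100A11, S100A13, S100P and S100B, 10 genes of the S100 calcium-binding protein family, were followed in the human myeloma line NCI-H929. They are all the listed S100 genes for which the platform annotation names a probe set, 10 of the 11963 genes with a probe set of a single gene name, and they hold 12 of the 22277 probe sets on each array. The list was chosen from the measured values of these same arrays, so the differences of these genes from scramble are given as descriptions. Which of them passed the test over all genes is stated as part of that description, and nothing is concluded from it. The cells had been electroporated with small interfering RNA (siRNA) and harvested 24 h later. The siRRM1 group received siRNA against RRM1, the large subunit of ribonucleotide reductase, and the siRRM2 group received siRNA against RRM2, its small subunit. The scramble group received a non-targeting siRNA, so electroporation and an siRNA were common to all 3 groups. Each group had 2 arrays, and the number of arrays limits the precision of every value.

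S100 proteins are small proteins with EF-hand loops that bind calcium, work mostly as dimers, and pass calcium signals on by binding other proteins. Inside cells they bind annexins, myosin and other partners, and several are also released and bind receptors such as AGER and TLR4. S100A8 and S100A9 form calprotectin, a complex best known from neutrophils and monocytes, where it sequesters zinc and manganese. S100A4, S100A6, S100A10 and S100A11 are expressed in many cell types, including transformed ones. A myeloma cell is a malignant plasma cell, a B lineage cell in which calprotectin is not a lineage marker.

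Values are log2 signals as deposited, for probe sets, which are groups of short probes for a transcript. A gene was tested where the mean of its brightest probe set over the 6 arrays reached a log2 signal of 5.44, the 40th percentile of all probe sets, and 7936 genes did. A gene was called at a Benjamini-Hochberg adjusted p under 0.05 in limma over all genes tested. An unadjusted p under 0.05 was found for 2587 of the 7936 genes in siRRM1 against scramble. It was found for 1616 in siRRM2 against scramble and for 797 between the knockdowns. The siRNAs left RRM1 at 22.4% and 11.7% of its scramble mean on the siRRM1 arrays, and RRM2 at 21.2% and 39.6% on the siRRM2 arrays. All 8 of the plasma cell markers examined lay above the filter level on every array. Separate cultures for the arrays of a group are not recorded in the labels, so a p-value measures only the spread between these samples, which may be technical. In bulk RNA, more cells that express a gene and more RNA per cell cannot be told apart.

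Of the 10 genes, 8 lie in the S100 cluster on chromosome 1, where the RefSeq order is S100A10, S100A11, then a block of epidermal genes, then S100A9, S100A12, S100A8, S100A6, S100A4 and S100A13 with other S100 genes among the last of them. S100P lies on chromosome 4 and S100B on chromosome 21. RefSeq promoters (GRCh38.p14) were given for 9 of the 10 genes, in 13 entries. The 250 bases before the transcription start are shown for S100A8, S100A9 and S100A12, which are adjacent and differed in their signals, and for S100A4 as an example from further along the cluster. They read 5′ to 3′ in the direction of transcription, and the capitals mark TATAAA, the core letters of a TATA box.
S100A8, chr1:153391074-153391323, minus strand: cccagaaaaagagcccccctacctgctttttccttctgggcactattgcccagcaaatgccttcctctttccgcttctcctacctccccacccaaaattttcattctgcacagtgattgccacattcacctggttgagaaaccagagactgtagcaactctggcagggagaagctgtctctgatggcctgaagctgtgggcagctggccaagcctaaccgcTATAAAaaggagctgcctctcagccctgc
S100A9, chr1:153357604-153357853, plus strand: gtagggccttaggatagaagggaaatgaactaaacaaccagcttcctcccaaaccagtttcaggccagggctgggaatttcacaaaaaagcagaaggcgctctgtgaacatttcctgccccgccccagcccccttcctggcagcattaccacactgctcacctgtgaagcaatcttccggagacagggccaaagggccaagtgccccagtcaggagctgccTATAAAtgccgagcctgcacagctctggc
S100A12, chr1:153375622-153375871, minus strand: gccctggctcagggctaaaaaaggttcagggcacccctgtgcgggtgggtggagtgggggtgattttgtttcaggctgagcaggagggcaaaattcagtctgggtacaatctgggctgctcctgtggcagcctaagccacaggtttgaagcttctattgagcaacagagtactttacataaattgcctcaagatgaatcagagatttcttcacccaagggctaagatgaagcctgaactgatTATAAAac
S100A4, chr1:153545807-153546056, minus strand: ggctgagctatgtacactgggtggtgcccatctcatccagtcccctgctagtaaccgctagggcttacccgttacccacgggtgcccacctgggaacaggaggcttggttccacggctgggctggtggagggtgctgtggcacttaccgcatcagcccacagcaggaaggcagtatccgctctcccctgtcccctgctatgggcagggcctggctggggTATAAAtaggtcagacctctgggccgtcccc
The S100A8 sequence belongs to the RefSeq entry whose start lies closest downstream of TATAAA, of 3 entries for that gene. TATAAA began at -29 in S100A8 and in S100A9, at -31 in S100A4 and at -8 in S100A12, counted from the annotated start. Between -35 and -25, on the strand shown, it was found in 5 of the 9 genes (S100A8, S100A9, S100A4, S100A13 and S100P), and in 2.17% of the 35097 RefSeq promoters. S100A6, S100A10 and S100A11 had no TATAAA in their 250 bases, and 6.80% of all promoters had it somewhere there. On either strand, the C/EBP letters TTGCNNAA were found in S100A12 and S100A11, and in 9.05% of all promoters. The AP-1 letters TGANTCA were found in S100A12 alone among the 9, and in 6.57% of all promoters. The looser NF-kappaB letters GGGNNNNNCC were found in 7 of the 9 genes, and in 54.4% of all promoters. The Sp1 letters GGGCGG were found in 5 of the 9, and in 42.6% of all promoters, and its letters and those of NF-kappaB can share bases. The p53 decamer motif was found in 0 of the 9, and in 5.58% of all promoters. A gene was counted where any of its entries had a match, and the percentages count single promoter entries, so the 2 are not on the same scale. By entry, TATAAA between -35 and -25 was found in 5 of the 13. The NF-kappaB match of S100A8 lay in an entry other than the one shown. A match describes these letters in this window and is not a bound site.

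Of all 10 genes, S100A8 had the widest separation from scramble. Its probe set 202917_s_at had log2 signals of 7.88 and 9.46 on the siRRM1 arrays and 6.53 and 8.23 on the siRRM2 arrays, against 4.45 and 4.44 on the scramble arrays. All 4 knockdown arrays lay above the filter level and both scramble arrays below it, so the gene entered the test only through the knockdown groups. The log2 difference from scramble was 4.23 in siRRM1 cells (SE 0.60), an 18.7-fold higher signal, and 2.94 in siRRM2 cells (SE 0.60), 7.67-fold. Set against the filter level in place of the low scramble signal, the siRRM1 mean was 9.38-fold higher and the siRRM2 mean 3.84-fold higher. Another probe set of the gene, 214370_at, gave 4.26 and 5.92 in siRRM1, 4.07 and 4.41 in siRRM2, and 3.71 and 3.75 in scramble. It put the 4 knockdown arrays in the same order as the other probe set, with siRRM1 replicate 2 highest and siRRM2 replicate 1 lowest. Its differences were smaller, 1.36 in siRRM1 and 0.51 in siRRM2 (SE 0.43 each), and its mean lay under the filter level. With the mean of both probe sets the S100A8 difference was 2.79 in siRRM1 and 1.72 in siRRM2.

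S100A9, the partner of S100A8 in calprotectin, had signals of 7.94 and 9.03 in siRRM1 and 6.74 and 7.91 in siRRM2, against 5.90 and 5.98 in scramble (203535_at). The groups did not overlap, and every array lay above the filter level. The log2 difference was 2.55 in siRRM1 (SE 0.42), 5.84-fold, and 1.39 in siRRM2 (SE 0.42), 2.62-fold. S100A12 encodes the other calgranulin, also a granulocyte protein, and its gene lies between those of S100A9 and S100A8. Its signals were 4.32 and 4.70 in siRRM1, 4.30 and 4.60 in siRRM2, and 4.36 and 3.97 in scramble (205863_at). All 6 lay under the filter level, and scramble replicate 1 lay above replicate 1 of each knockdown. Its differences, 0.34 in siRRM1 and 0.28 in siRRM2 (SE 0.18 each), stand on signals too low to show whether the gene was expressed.

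The calprotectin genes also differed most between replicates of a knockdown. For S100A8, replicate 2 lay above replicate 1 by 1.58 in siRRM1 and 1.70 in siRRM2, with a difference of -0.006 in scramble. For S100A9 the same gap was 1.10 in siRRM1, 1.17 in siRRM2 and 0.08 in scramble. The siRRM1 difference of S100A8 was therefore 5.02 without siRRM1 replicate 1 and 3.44 without siRRM1 replicate 2, and its siRRM2 difference was 3.79 without siRRM2 replicate 1 and 2.09 with replicate 2 left out in its place. The siRRM1 difference of S100A9 was 3.09 without siRRM1 replicate 1 and 2.00 without siRRM1 replicate 2, where it was no longer called, and its siRRM2 difference was 1.97 with siRRM2 replicate 1 left out and 0.80 with siRRM2 replicate 2 left out. The log2 difference between 3′ and 5′ control probes of a transcript of the cells is a sign of RNA or labelling quality. For beta-actin it was 0.03 and 0.33 on siRRM1 replicates 1 and 2, and 0.05 on both siRRM2 arrays. On scramble replicates 1 and 2 it was 0.34 and 0.15. For GAPDH it was -0.11 and -0.01 in siRRM1, -0.10 on both siRRM2 arrays, and -0.02 and -0.09 in scramble. The array with the highest S100A8 and S100A9 signals was siRRM1 replicate 2. It had the largest difference in 8 of 17 control sets, and scramble replicate 1 in 5. These 17 include added control transcripts that do not come from the cells, so the count does not describe the RNA of the cells alone. The remaining target was lower on replicate 2 in siRRM1 and on replicate 1 in siRRM2. The part of RNA quality or knockdown strength in the gaps between replicates was not tested.

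**Figure D1:**
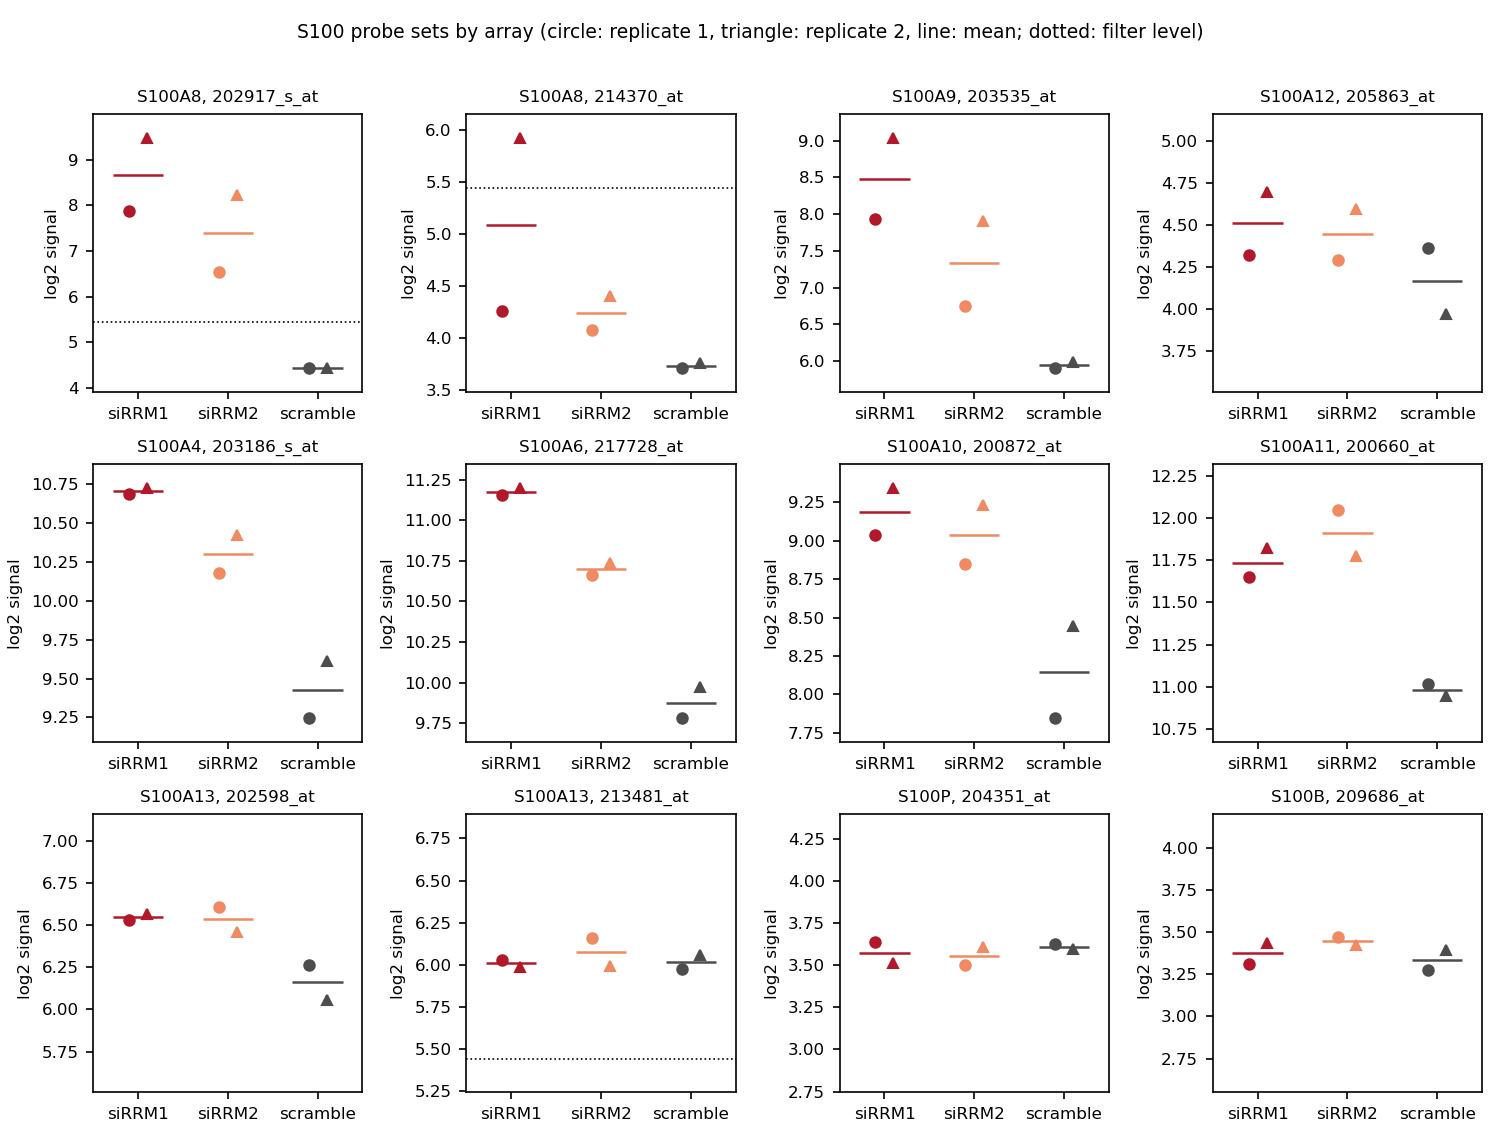
Log2 signal (y axis, own scale in each panel) of the 12 S100 probe sets in the siRRM1, siRRM2 and scramble groups. Circles are replicate 1, triangles replicate 2, short lines the group mean, and the dotted line the filter level of 5.44 where it falls in the panel. S100A8 (202917_s_at) sits at 7.88 and 9.46 in siRRM1 and at 4.45 and 4.44 in scramble.

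S100A4 and S100A6 stepped apart by group. In S100A4 replicate 2 lay above replicate 1 by 0.03 in siRRM1, 0.24 in siRRM2 and 0.37 in scramble. In S100A6 the same gaps were 0.04, 0.07 and 0.19. S100A4, known for binding the myosin heavy chain MYH9 and for a role in cell motility, had signals of 10.69 and 10.72 in siRRM1 and 10.18 and 10.42 in siRRM2, against 9.25 and 9.61 in scramble (203186_s_at). The differences were 1.28 in siRRM1, 2.42-fold, and 0.87 in siRRM2, 1.83-fold (SE 0.14 each). S100A6, calcyclin, which binds CACYBP and annexins, had 11.15 and 11.20 in siRRM1 and 10.66 and 10.74 in siRRM2, against 9.78 and 9.97 in scramble (217728_at). Its differences were 1.30 in siRRM1, 2.46-fold, and 0.82 in siRRM2, 1.77-fold (SE 0.10 each). For both genes the order of the groups was siRRM1, siRRM2, scramble, with no array of one group inside the range of another.

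S100A10 and S100A11, the annexin-binding members at the far end of the cluster, had knockdown groups that overlapped each other. S100A10, the partner of ANXA2 at the plasma membrane, had signals of 9.04 and 9.34 in siRRM1 and 8.85 and 9.23 in siRRM2, against 7.84 and 8.44 in scramble (200872_at). Its differences were 1.04 in siRRM1, 2.06-fold, and 0.90 in siRRM2 (SE 0.21 each). S100A11, which binds ANXA1, had 11.65 and 11.82 in siRRM1 and 12.05 and 11.78 in siRRM2, against 11.02 and 10.94 in scramble (200660_at). Its differences were 0.75 in siRRM1, 1.69-fold, and 0.93 in siRRM2, 1.91-fold (SE 0.12 each). In S100A10 the scramble replicates differed by 0.60, more than the replicates of either knockdown. Its siRRM1 difference was no longer called without scramble replicate 1 (0.74) or without siRRM1 replicate 2 (0.89), and that of S100A11 was not called without siRRM1 replicate 2 (0.67).

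S100A13, which takes part in the unconventional release of FGF1, had a small difference on a single probe set. On 202598_at its signals were 6.53 and 6.57 in siRRM1 and 6.61 and 6.46 in siRRM2, against 6.27 and 6.06 in scramble. The differences were 0.39 in siRRM1, 1.31-fold, and 0.38 in siRRM2 (SE 0.11 each). Its other probe set, 213481_at, disagreed, with 6.03 and 5.99 in siRRM1, 6.16 and 5.99 in siRRM2, and 5.98 and 6.06 in scramble, groups that overlapped. The siRRM1 call of S100A13 held under 1 of the 13 alternative settings in which it was tested.

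S100P, a placental and epithelial member, and S100B, a glial and melanocytic one, lay under the filter level on every array. S100P had signals of 3.64 and 3.51 in siRRM1, 3.50 and 3.61 in siRRM2, and 3.63 and 3.59 in scramble (204351_at). S100B had 3.31 and 3.44 in siRRM1, 3.47 and 3.42 in siRRM2, and 3.28 and 3.39 in scramble (209686_at). The differences from scramble were -0.04 and 0.04 in siRRM1 and -0.05 and 0.11 in siRRM2, for S100P and S100B in that order. A change in either gene was not detectable at these signals.

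Against scramble, 7 of the 7 tested S100 genes were called higher in siRRM1 cells and 0 lower, where 8.22% of all genes tested were called higher and 7.33% lower. In siRRM2 cells 3 of 7 were called higher (S100A6, S100A11 and S100A4) and 0 lower, where 2.00% of all genes were called higher and 0.517% lower. S100A12, S100P and S100B did not pass the filter. Since the list was chosen with these comparisons in view, nothing is read from the counts. Both knockdown arrays lay above both scramble arrays in 7 of the 7 tested members for siRRM1, against 28.4% of genes tested. For siRRM2 it was also 7 of 7, against 27.1%. Over all 10 genes, untested ones included, the counts were 7 for siRRM1 and 8 for siRRM2. The eighth was S100B, by 0.03 on signals under the filter level. The median log2 difference over all 10 genes was 0.90 in siRRM1 and 0.85 in siRRM2, beside 0.003 and 0.0002 over all 11963 genes. Both comparisons use the same scramble arrays. Leaving out 1 array at a time left 3 to 6 genes called in siRRM1 (3 without siRRM1 replicate 2, and 5 without scramble replicate 1). It left 0 to 4 called in siRRM2, with 0 without scramble replicate 1 and 1 without either siRRM2 array.

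**Figure D2:**
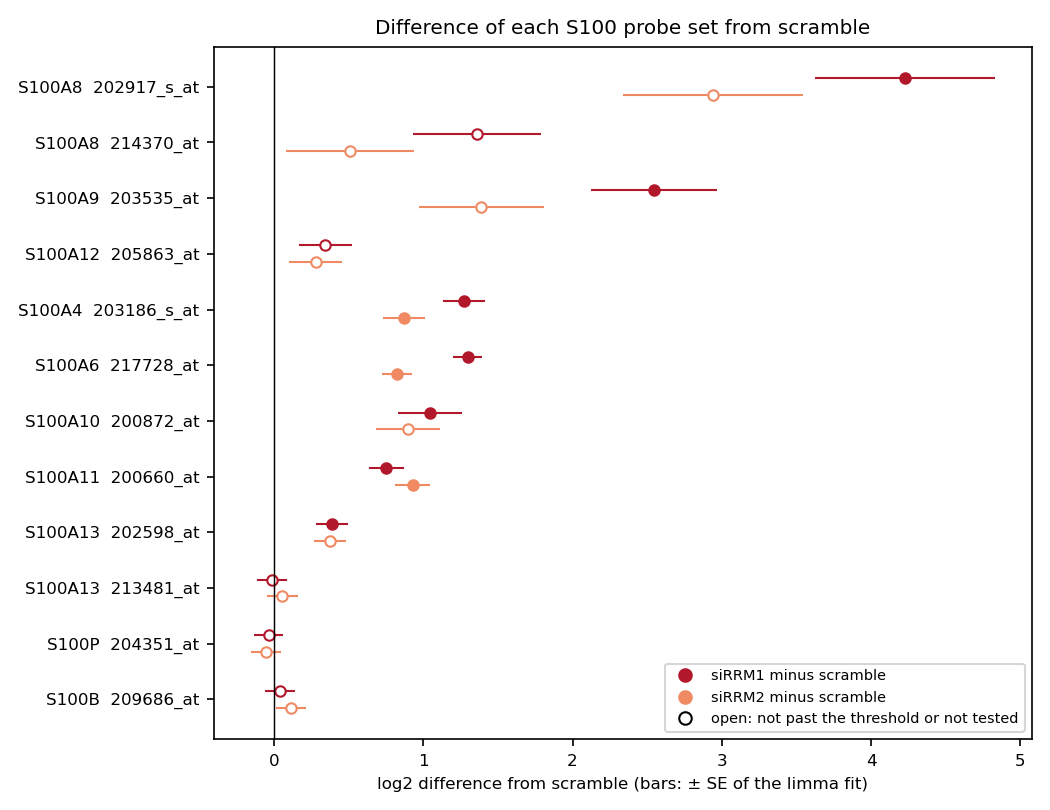
Log2 difference from scramble (x axis) of each S100 probe set, with siRRM1 above siRRM2 in each pair of rows. Bars are ± SE of the limma fit, filled points passed the threshold, and open points did not or were not tested. The 202917_s_at probe set of S100A8 is farthest right, at 4.23 and 2.94.

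The siRRM1 arrays were also set against the siRRM2 arrays directly, a comparison that shares its arrays with those above. In it 0 of the 7 tested S100 genes were called in either direction by limma. An unadjusted p under 0.05 was found for 3, and for 797 of the 7936 genes tested. Of all genes tested, 0.126% were called higher in siRRM1 and 0.0378% lower. S100A6 was higher in siRRM1 by 0.47 (95% interval 0.24 to 0.70, limma adjusted p = 0.152) and S100A4 by 0.41 (0.08 to 0.73, adjusted p = 0.405). S100A9 was higher by 1.16 (0.18 to 2.13, adjusted p = 0.418), and its groups were kept apart by a gap of 0.02 alone. In these 3 genes both siRRM1 arrays lay above both siRRM2 arrays. The S100A8 difference of 1.29 had an interval of -0.11 to 2.69 (limma adjusted p = 0.532), and its groups overlapped. S100A11 was the tested member with a lower mean in siRRM1, by a log2 difference of -0.18 (limma adjusted p = 0.678). S100A10 differed by 0.15 (limma adjusted p = 0.884) and S100A13 by 0.01 (adjusted p = 0.979). This fit by group alone therefore does not show whether the knockdowns differ in any of the 7. A fit that also takes the replicate number as a block gave other calls, listed in the last section.

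Across the 6 arrays the patterns of the tested members are described by Pearson's r, over points that share the same arrays. It was 0.990 between S100A4 and S100A6, 0.986 between S100A8 and S100A9, 0.956 between S100A4 and S100A10, and 0.947 between S100A8 and S100A4. For S100A11 it was highest with S100A13, at 0.942. It was lowest between S100A10 and S100A13, at 0.683, and between S100A9 and S100A11, at 0.684. Among the other tested genes, those whose 6 signals were most like S100A8 were GZMB (r = 0.996), PCBP4 (0.995), RAB29 (0.993), COMMD3 (0.992) and IL2RB (0.991). GZMB, a granule protease of cytotoxic lymphocytes, had signals of 9.56 and 10.90 in siRRM1 and 8.15 and 9.49 in siRRM2, against 5.56 and 5.89 in scramble. Like S100A8, it had replicate 2 above replicate 1 in both knockdowns. IL2RB, a chain of interleukin receptors on lymphocytes, differed by 0.80 in siRRM1 and 0.63 in siRRM2. The genes named here were chosen by their likeness on these arrays, so their differences are descriptions, with no test. Most like S100A9 were HDAC3 (r = 0.995), PHLDA2 (0.993), DPYSL2 (0.993), WBP1L (0.992) and PIGZ (0.992), whose siRRM1 differences of 0.25 to 0.76 were smaller than that of S100A9.

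The genes between S100A10 and S100A1 on chromosome 1 were examined in their RefSeq order. The array measured 30 genes over this stretch, both ends included, and 22 of them are not among the 8 S100 genes followed. Only 4 of the 22 passed the filter, and S100A2 did so only through the knockdown groups. In siRRM1, 2 of the 4 were called higher, as were 8.22% of all genes tested. SPRR2B, a small proline-rich protein of the epidermal cornified envelope, had signals of 8.48 and 9.18 in siRRM1 and 7.56 and 8.10 in siRRM2, against 6.91 and 7.10 in scramble (208539_x_at). It rose by 1.83 in siRRM1 (SE 0.25, limma adjusted p = 0.00487), and its difference in siRRM2 was 0.82 (adjusted p = 0.126). The SPRR2 genes are near-identical copies, so which of them gave this signal is uncertain. S100A2, a nuclear S100 protein of epithelial cells, had 6.02 and 6.49 in siRRM1 and 5.59 and 5.54 in siRRM2, against 5.04 and 5.42 in scramble. Both scramble arrays lay under the filter level and the knockdown arrays above it, so the siRRM1 call of S100A2 is a description only. Its difference was 1.02 in siRRM1 (SE 0.18), and 0.79 without siRRM1 replicate 2. In siRRM2 it was 0.33 (limma adjusted p = 0.335). KPLCE and SPRR1A were tested and had differences of -0.02 and 0.13 in siRRM1. The other 18 genes of the stretch, filaggrin (FLG), loricrin (LORICRIN) and involucrin (IVL) among them, had means under the filter level. The median siRRM1 difference of the 22 was 0.08, beside 0.003 over all genes.

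**Figure D3:**
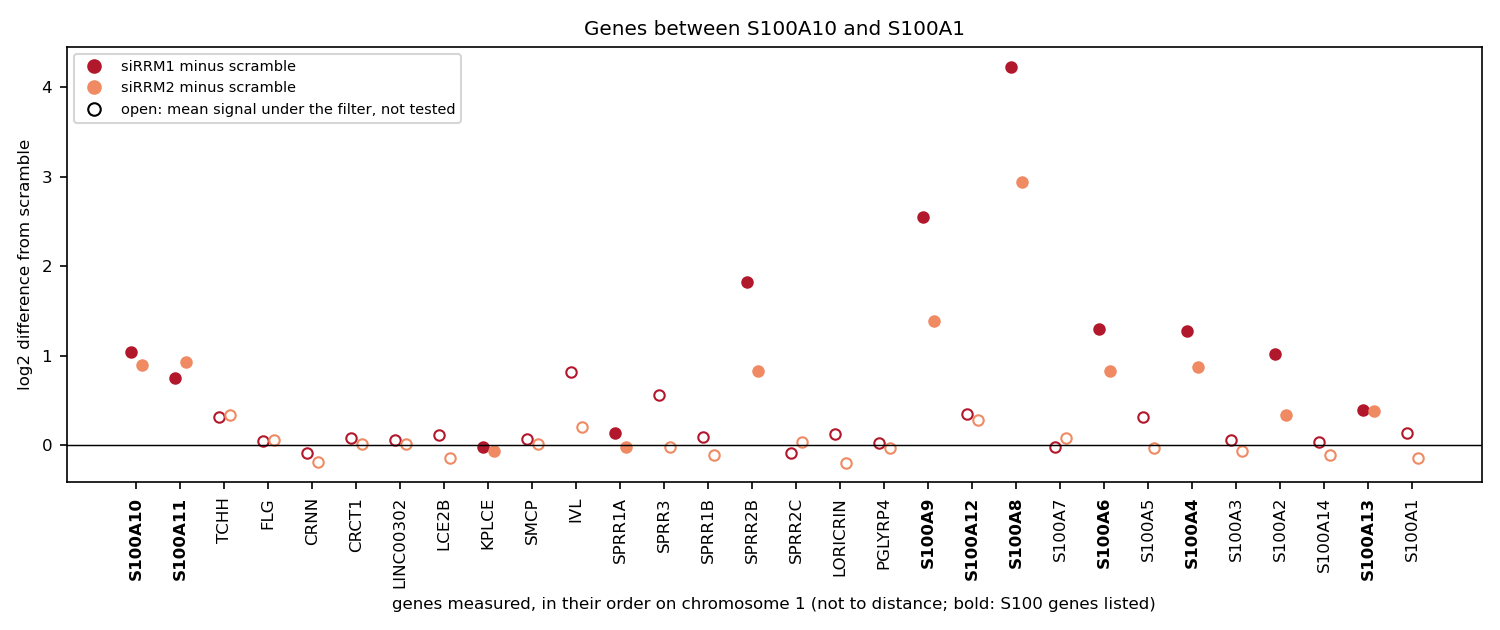
Log2 difference from scramble (y axis) for the 30 measured genes from S100A10 to S100A1, in their order on chromosome 1 and not to distance. Each gene has its siRRM1 point left of its siRRM2 point, open points have means under the filter level, and bold names are the S100 genes followed. The highest siRRM1 points are S100A8 (4.23), S100A9 (2.55) and SPRR2B (1.83), and among the untested genes IVL reaches 0.82 and SPRR3 0.56.

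Of the other S100 genes listed, 7 were on the array and 1 was tested, S100A2, described above. S100A1, S100A3, S100A5, S100A7, S100A14 and S100G had means under the filter level.

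Proteins that S100 members bind were examined as a list, of which 13 were tested. In siRRM1 cells 4 rose and 0 fell, where 8.22% of all genes tested were called higher and 7.33% lower. ANXA4 rose by 0.81 (limma adjusted p = 0.00616) and ANXA11 by 0.75 (adjusted p = 0.00649), both annexins that bind membranes in calcium. ANXA6 rose by 0.44 (limma adjusted p = 0.0298) and MYH9, the non-muscle myosin bound by S100A4, by 0.40 (adjusted p = 0.0276), and leaving out 1 array left 2 or 3 of the 4 called. In siRRM2 cells 0 were called by limma and 5 had an unadjusted p under 0.05, as had 1616 of the 7936 genes tested. ANXA4 differed there by 0.52 (limma adjusted p = 0.0642) and ANXA6 by 0.42 (adjusted p = 0.0802). Between the knockdowns 0 were called and 2 had an unadjusted p under 0.05, as had 797 of the 7936 genes tested. The 2 were ANXA11 with a difference of 0.35 (limma adjusted p = 0.352) and ANXA4 with 0.28 (adjusted p = 0.477). The median difference of the 15 partners on the array was 0.21 in siRRM1 and 0.08 in siRRM2. ANXA2, ANXA1 and CACYBP, the partners given above for S100A10, S100A11 and S100A6, were tested and not called. Their differences, added after their values were seen, were -0.007, 0.21 and -0.05 in siRRM1, in that order. In siRRM2 they were -0.06, 0.08 and -0.06.

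Of the receptors for released S100 proteins, 7 were on the array and 3 were tested. In siRRM1 cells 1 of the 3 was called higher and 0 lower, against 8.22% and 7.33% of all genes tested. TLR4, a receptor of calprotectin, had signals of 6.87 and 6.65 in siRRM1 and 6.79 and 6.55 in siRRM2, against 6.07 and 6.13 in scramble. It rose by 0.66 in siRRM1 (limma adjusted p = 0.0123) and was not called without scramble replicate 1 (0.64, adjusted p = 0.0586). In siRRM2 cells 0 of the list were called by limma and 1 had an unadjusted p under 0.05, as had 1616 of the 7936 genes tested. TLR4 differed there by 0.57 (limma adjusted p = 0.0546), and BSG, another S100A9 receptor, differed there by 0.19 (adjusted p = 0.344). Between the knockdowns TLR4 differed by 0.09 (limma adjusted p = 0.860) and ALCAM by 0.05 (adjusted p = 0.974), 0 were called, and 0 had an unadjusted p under 0.05. AGER, CD36, CD69 and TLR2 had means under the filter level.

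Transcription factors known to act on S100A8 or S100A9 numbered 13 on the array, of which 9 were tested. In siRRM1 cells 2 of the 9 rose and 0 fell, against 8.22% and 7.33% of all genes tested. JUNB, an AP-1 subunit, rose by 0.57 (limma adjusted p = 0.0123), and STAT3, the factor activated by interleukin receptors, rose by 0.47 (adjusted p = 0.0210). Neither was called without siRRM1 replicate 2 or without scramble replicate 2, nor STAT3 without siRRM1 replicate 1 or scramble replicate 1. With the mean of all its probe sets STAT3 differed by 0.32 (limma adjusted p = 0.0703). In siRRM2 cells 0 were called by limma and 2 had an unadjusted p under 0.05, as had 1616 of the 7936 genes tested. The 2 were JUNB with 0.43 (limma adjusted p = 0.0726) and STAT3 with 0.25 (adjusted p = 0.222). Between the knockdowns STAT3 differed by 0.23 (limma adjusted p = 0.505) and NFKB1 by 0.21 (adjusted p = 0.507), 0 were called, and 0 had an unadjusted p under 0.05. CEBPD, CEBPE, SPI1 and KLF5 had means under the filter level, and CEBPA and CEBPB, also factors of myeloid cells and named after their values were seen, were tested and not called in siRRM1 (-0.19 and 0.25). JUN and FOS, likewise named after their values were seen, were tested and not called. They differed by 0.84 and 0.40 in siRRM1, where JUN had the largest difference of the list, and by 0.43 and 0.18 in siRRM2.

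Of the other EF-hand calcium sensors, 17 were tested. In siRRM1 cells 1 rose, where 8.22% of all genes tested did, and 4 fell, where 7.33% did, and the median difference was -0.13. LCP1, an actin-bundling protein of leukocytes, rose by 0.86 (limma adjusted p = 0.00556). CETN3, a centrin of the centrosome, fell by 0.64 (limma adjusted p = 0.00955) and GCA, grancalcin, fell by 0.76 (adjusted p = 0.0113). SRI, sorcin, fell by 0.53 (limma adjusted p = 0.0178) and RCN2, an endoplasmic reticulum protein named after its values were seen, fell by 0.47 (adjusted p = 0.0248). None of these 4 falls was called without siRRM1 replicate 2 or without scramble replicate 1, nor SRI without scramble replicate 2. In siRRM2 cells 0 were called by limma and 6 had an unadjusted p under 0.05, as had 1616 of the 7936 genes tested. LCP1 differed there by 0.54 (limma adjusted p = 0.0641) and CETN3 by -0.47 (adjusted p = 0.0680). Between the knockdowns 0 were called and 3 had an unadjusted p under 0.05, as had 797 of the 7936 genes tested. SRI differed there by -0.37 (limma adjusted p = 0.294) and LCP1 by 0.32 (adjusted p = 0.440).

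**Figure D4:**
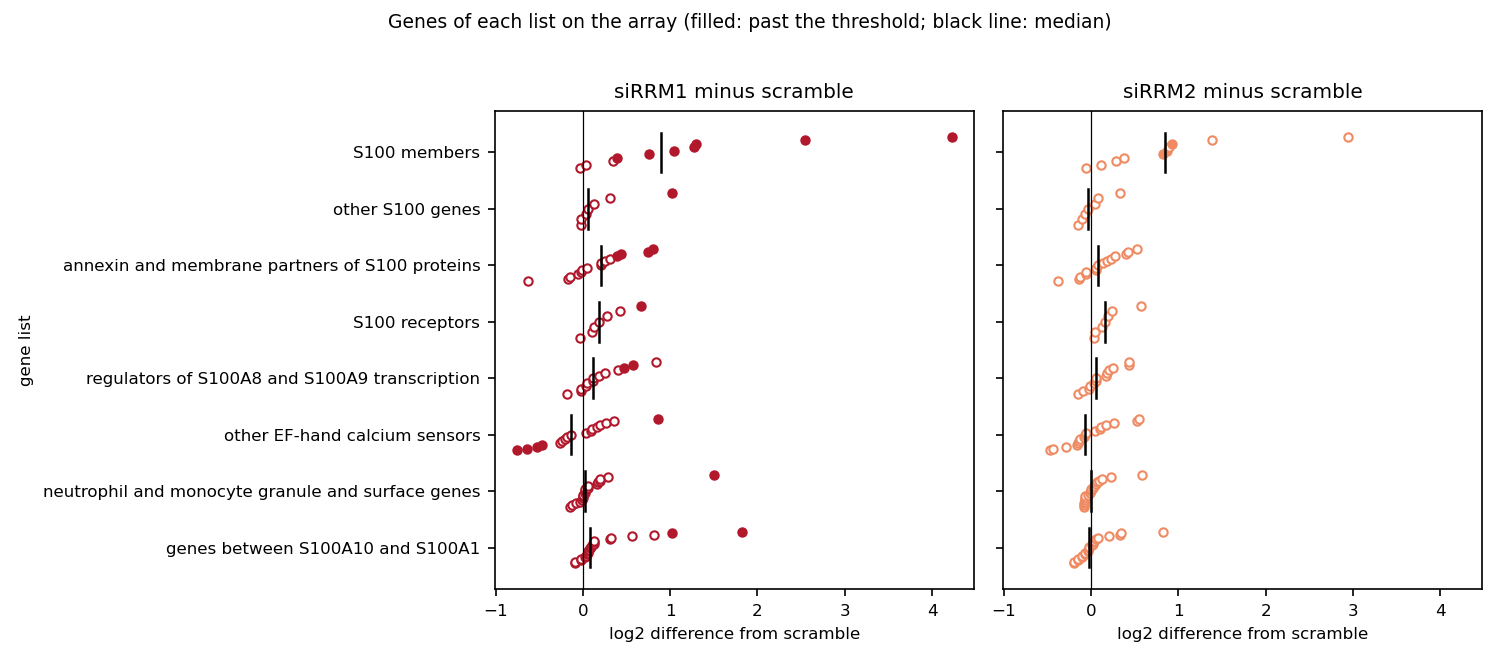
Log2 difference from scramble (x axis) of each gene on the array, by gene list (rows), for siRRM1 on the left and siRRM2 on the right. Filled points passed the threshold over all genes, and black lines are list medians. The S100 members have medians of 0.90 in siRRM1 and 0.85 in siRRM2.

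Because calprotectin marks neutrophils and monocytes, other genes of those cells were examined beside it. Of 19 on the array, 5 were tested and 1 was called in siRRM1, higher, as were 8.22% of all genes tested. CSF1R, the receptor for macrophage colony-stimulating factor, had signals of 6.73 and 7.68 in siRRM1 and 6.08 and 6.50 in siRRM2, against 5.56 and 5.84 in scramble. It rose by 1.50 in siRRM1 (SE 0.29, limma adjusted p = 0.0154) and was not called without siRRM1 replicate 2 (1.03) or without scramble replicate 1 (1.36). In siRRM2 cells 0 were called by limma and 0 had an unadjusted p under 0.05. The siRRM2 difference of CSF1R was 0.59 (limma adjusted p = 0.305), and AIF1, a macrophage protein, differed there by 0.23 (adjusted p = 0.303). Between the knockdowns 0 were called and 1 had an unadjusted p under 0.05, as had 797 of the 7936 genes tested. CSF1R differed there by 0.92 (limma adjusted p = 0.355) and CAMP, a neutrophil granule peptide, by 0.21 (adjusted p = 0.591).

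Of the 11 myeloid markers, 2 lay above the filter level on each array, CSF1R and AIF1. CD14, LYZ, ITGAM, MPO, ELANE, CSF3R, FCN1, CD163 and FCGR3B lay under it on all 6. The summed linear signal of the 11 was 323 to 432 in siRRM1, 287 to 306 in siRRM2 and 260 to 269 in scramble. Without CSF1R it was 217 to 227 in siRRM1, 216 to 220 in siRRM2 and 212 to 213 in scramble, a sum chosen after its values were seen. Of the 9 T and NK cell markers, 3 were tested and 1 was called in siRRM1, higher, as were 8.22% of all genes tested. This was NKG7, a granule protein of cytotoxic lymphocytes. Its signals were 5.85 and 6.36 in siRRM1, 5.86 and 6.24 in siRRM2, and 4.34 and 5.15 in scramble. Both scramble arrays lay under the filter level, so it entered the test only through the knockdown groups and its call is a description. It differed by 1.36 in siRRM1, 0.96 to 1.76 over its alternatives, and by 1.30 in siRRM2, where it was not called. The other tested markers, CD3E and CD4, differed by 0.13 and 0.04 in siRRM1 and were not called. In siRRM2 they differed by 0.33 (limma adjusted p = 0.228) and 0.20 (adjusted p = 0.328). Of the 3 tested, 2 had an unadjusted p under 0.05 in siRRM2, as had 1616 of the 7936 genes tested. The summed signal of the 9 was 317 to 389 in siRRM1, 363 in both siRRM2 arrays and 282 to 316 in scramble. CD3D, CD3G, CD2, CD8A, KLRD1 and KLRB1 had means under the filter level. Of the plasma cell markers, only IRF4, a factor that maintains plasma cells, was called in siRRM1, where 7.33% of genes tested were called lower. It fell by 0.63 (limma adjusted p = 0.0449), a call lost under 8 of its alternatives. The 8 plasma cell markers differed by -0.63 to -0.11 in siRRM1, with a median of -0.29. An unadjusted p under 0.05 was found there for 4 of them, and for 2587 of the 7936 genes tested. In siRRM2 the median was -0.03 and 1 had such a p, as had 1616 genes. Between the knockdowns the median was -0.24 and 5 had such a p, as had 797 genes. The summed signal of the plasma cell markers was 31147 to 32410 in siRRM1, 35354 to 38300 in siRRM2 and 36139 to 40436 in scramble. Of the 7 epithelial markers, 2 were tested and 0 were called or had an unadjusted p under 0.05, with a summed signal of 456 to 477 in siRRM1, 468 to 477 in siRRM2 and 484 to 493 in scramble. The part of these markers in the S100 differences was not tested.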

How the data were processed

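The 6 arrays held 2 each of siRRM1, siRRM2 and scramble cells. The values the authors deposited are log2 signals per probe set, and the sources used here do not give their summary or normalization. Array medians lay between 6.11 and 6.16, so no further scaling was applied. The files hold no detection calls. Names came from the platform annotation (19070 with 1 symbol, 1043 with several, 2164 with none). For each of 11963 genes the probe set with the highest mean was used. Genes with a mean at or above the 40th percentile entered lmFit and eBayes of limma 3.58.1, run in R 4.3.3 (3 groups sharing 1 estimate of the spread, 3 residual and 4.61 prior degrees of freedom). Benjamini-Hochberg adjustment ran over all 7936 genes tested, and all tests were two-sided. Values of probe sets that were not used for a gene or did not pass the filter come from the same fit on all probe sets. The script was tested on simulated data. The members, lists and tests were chosen with earlier results of these data known. From each list the text names the called genes, at most 4 with the smallest adjusted p in a contrast, or the 2 with the smallest p where 0 were called, and the 5 genes most like S100A8 and S100A9. The platform's gene symbols were checked against RefSeq through 19058 gene identifiers, and 0 changed. Gene order and promoters are from RefSeq (GRCh38.p14), and for the probe sets themselves the sources used here give no build. Alternatives were another filter, another probe set rule, other scalings, an intensity trend, a replicate block, the 2 groups alone and each array left out.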

Additional observations from a re-analysis of the deposited data

How the results depend on the processing

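With 2 arrays in a group, the counts depend on single arrays. Genes called in siRRM1 against scramble numbered 1234 (652 higher, 582 lower), 312 to 1234 with 1 array left out (312 without siRRM1 replicate 2, 497 without scramble replicate 1, 710 without scramble replicate 2), and 572 higher against 818 lower after median centring. In siRRM2 against scramble 200 were called, 21 to 206 with 1 array left out, and 336 with an intensity trend. Between the knockdowns 13 were called, 2 to 16 with 1 array left out, 4 with a filter at the 60th percentile and 42 with an intensity trend. S100 genes called numbered 7 in siRRM1 (3 to 6 with 1 array left out) and 3 in siRRM2 (0 to 4 with 1 array left out, 5 with an intensity trend). The replicate numbers are shared between groups but are not said to mark a culture or day. The deviations of same-numbered arrays correlated at 0.21 to 0.38 over 7936 genes, with 2 pairs in each contrast. A replicate block raised the calls to 1904, 622 and 153 genes in siRRM1, in siRRM2 and between the knockdowns, and the S100 calls to 6 in siRRM2 (S100A8, S100A9 and S100A10 added) and 2 between the knockdowns (S100A6 and S100A9), and S100A13 in siRRM1 stayed called. The S100A8 difference was 2.79 to 5.02 in siRRM1 and 1.72 to 3.79 in siRRM2 over the 13 alternatives that kept it. The differences of the 7 tested S100 genes from scramble kept their sign under every alternative run, a direction that the choice of the genes had fixed and that says nothing of stability. S100A8 and S100A13 did not pass the filter at the 60th percentile. Between the knockdowns 2 small differences changed sign: S100A10 (0.15) was -0.0049 without siRRM1 replicate 2 and -0.044 without siRRM2 replicate 1, within a range of -0.044 to 0.34, and S100A13 (0.014) was -0.0039 without siRRM1 replicate 2 and -0.060 without siRRM2 replicate 2, within -0.060 to 0.089, and -0.026 with the mean of its probe sets. The cause of these changes was not tested, beyond the smaller number of arrays or genes in the fits that leave some out. The same alternatives for called genes of the lists were added after seeing the data, and 0 of these reversed. Signals of S100A12, S100P and S100B under the filter level limit what can be said of them.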
